A study of Mus musculus with 2 samples.

Results

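The route from the adaptor MyD88 to NF-kB, with the proteins that restrain it, was followed through 48 genes chosen by name for their role: receptor adaptors, IRAK and TRAF proteins, kinases, NF-kB subunits, IkB proteins and ubiquitin editors. They were picked out of 54446 genes in the count tables by matching Ensembl IDs to GENCODE M21, and a mean count of at least 10 over both libraries was required. All 48 passed, as did 14379 genes in all. The counts came from bone marrow derived macrophages (BMDMs) of C57BL/6 mice, grown from marrow precursors, that received IL-36 gamma or no treatment. There was 1 IL-36 gamma library and 1 control library. Neither the dose and duration of IL-36 gamma nor the number of animals behind a library is given in the sources used here. The question addressed is which transcripts of this pathway differ between macrophages with and without the cytokine.

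IL-36 gamma is a cytokine of the interleukin-1 family. Its receptor pairs with the accessory chain shared by IL-1 receptors and draws in MyD88, which assembles IRAK kinases. These engage TRAF6, and the ubiquitin chains built there recruit the TAK1 kinase and the IKK complex. IKK marks IkB proteins for destruction, and the NF-kB dimers they held enter the nucleus. Many restraints on the pathway, among them IkB alpha and the ubiquitin editor A20, are themselves NF-kB target genes in macrophages, so their transcripts are known as feedback genes.

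With 1 library in each group nothing checks a difference against the spread between cultures, and p-values are therefore not reported. Each ratio is that of scaled counts in the IL-36 gamma library over the control library, with an exact 95% Clopper-Pearson interval that covers counting error only. A gene was called higher when its ratio was at least the reciprocal of 0.8 with the whole interval above 1, and lower when its ratio was at most 0.8 with the whole interval below 1. The gene counts summed to 17267900 in the IL-36 gamma library and 17426367 in the control library. All 10 macrophage markers were measured, with a summed level of 30584 CPM (counts scaled to library size) in the IL-36 gamma library and 30755 CPM in the control library. The F4/80 gene Adgre1 had 53682 and 49439 counts in the IL-36 gamma and control libraries. Of 5 T cell markers, 3 were at 0 in both libraries, and the 4 mast cell and basophil markers were all at 0. The 10 neutrophil markers summed to 242 CPM in the IL-36 gamma library and 151 CPM in the control library. Of 9 measured markers 6 were called higher. Among them S100a8, S100a9, Ngp, Ltf and Camp had at least 43 counts in each library, and their lowest ratio was 1.52 (Ltf). Elane (22 counts with IL-36 gamma and 3 in the control), Retnlg (18 and 8) and Mpo (14 and 6) passed the count filter only through the IL-36 gamma library. The filter thus favoured ratios above 1 for these genes. Ly6g, the marker below the count filter, had 9 counts with IL-36 gamma and 8 in the control, a ratio of 1.17. The 6 fibroblast markers summed to 7.77 CPM in the IL-36 gamma library and 13.2 CPM in the control library. Mitochondrially encoded genes took 1.1% of gene counts in the IL-36 gamma library and 1.2% in the control library, and ribosomal protein genes took 3.90% in the IL-36 gamma library and 3.34% in the control library. B cell markers summed to 29.2 CPM in the IL-36 gamma library and 22.9 CPM in the control library, nearly all from Cd79b. Dendritic cell markers summed to 1.53 CPM in the IL-36 gamma library and 1.69 CPM in the control library, and erythroid markers to 0.0588 CPM and 0.508 CPM in the IL-36 gamma and control libraries. The part of these differences in the results was not tested. Fewer cells of a type and less RNA per cell cannot be told apart in such bulk samples.

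The pathway's transcripts were nearly level between the libraries. Of the 48 genes, 42 had a ratio between 0.8 and its reciprocal. The genes called higher were Bcl3, Nfkbib and Tnip1, 3 of 48 (6.25%), against 6.03% of all 14379 genes tested and 5.6% of the 8683 genes with a mean count of 200 or more. The genes called lower were Peli2, Nfkbid and Traf3, again 3 of 48 (6.25%), against 8.86% of all genes tested and 7.08% of the more abundant ones. Both shares lay close to the background, so the counts show no excess of change in the pathway as a group. The median log2 ratio of the members was -0.02, against 0.00 over all genes tested and 0.02 over the abundant genes, a depth that 47 of the 48 members reached. Among those abundant genes the 5th percentile of ratios was 0.776 and the 95th was 1.26, and 43 members fell inside that range. Without the fold bound, 9 members had a whole interval above 1 (18.8%, against 19.1% of genes tested and 27.3% of abundant ones). A whole interval below 1 was found in 12 members (25%), against 17.4% of genes tested and 21.2% of abundant ones. Scaling by total gene counts in place of the TMM factors lowered every gene's ratio by the same factor, to a median log2 ratio of -0.07 over the members and -0.05 over all genes tested. It left 1 of 48 members called higher (Bcl3), against 4.28% of all genes tested, and 7 of 48 called lower, against 11.3%. Of the members' calls 12.5% were then higher, in place of 50%.

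**Figure D1:**
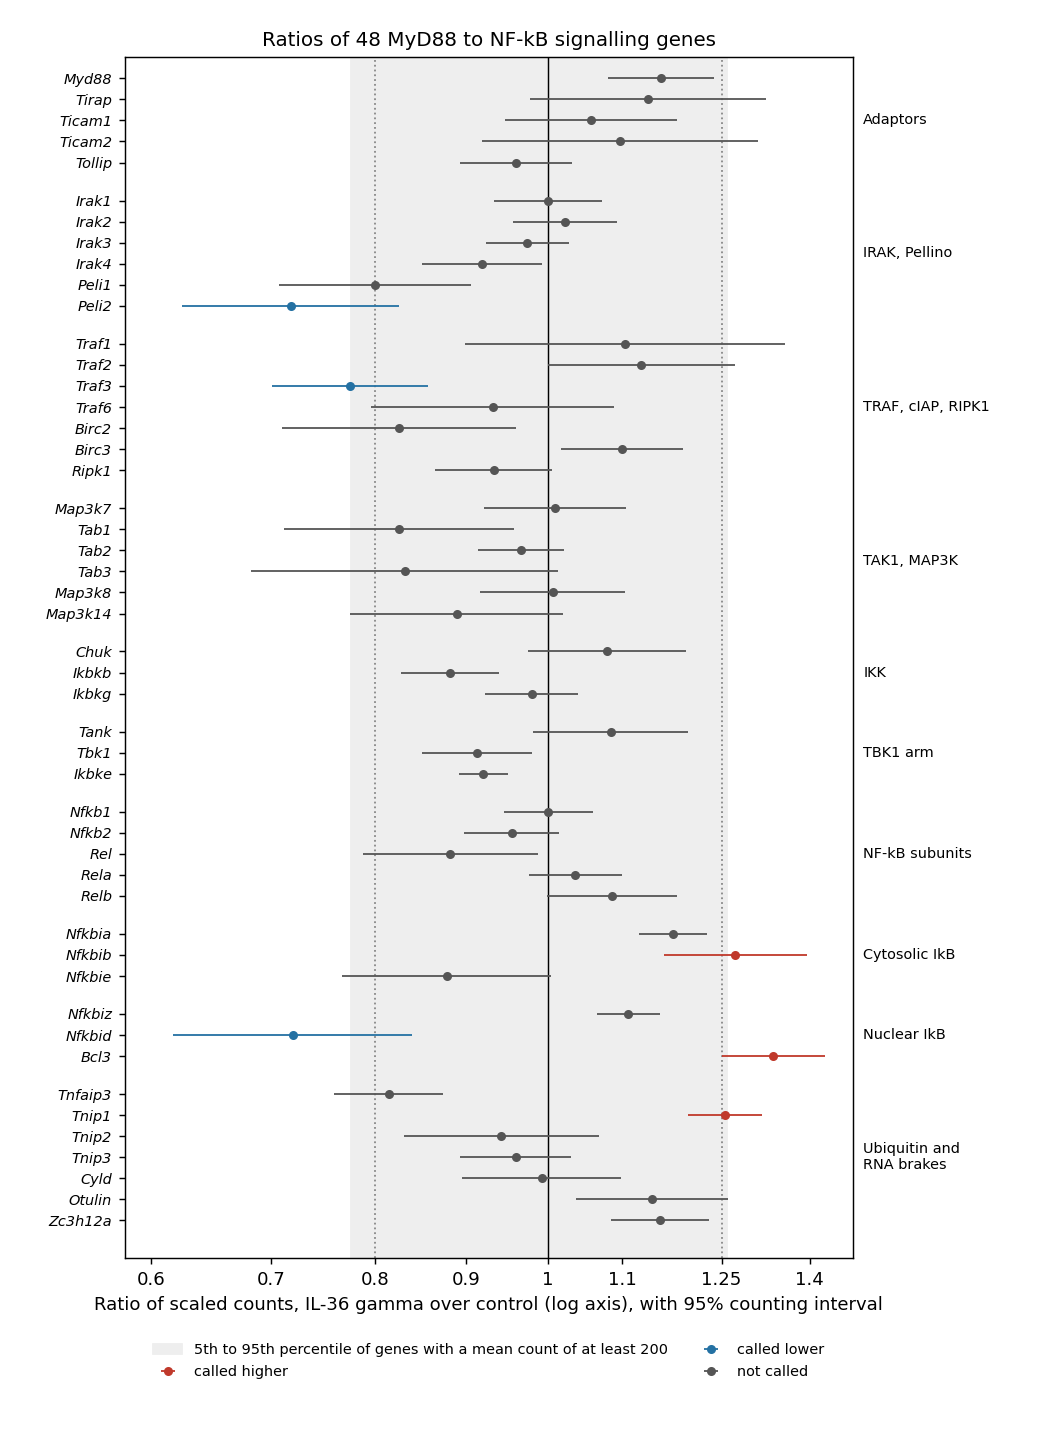
Ratio of scaled counts in the IL-36 gamma library over the control library for 48 genes grouped by role, on a log axis, with 95% counting intervals as bars. Dotted lines mark the bounds for a call, 0.8 and its reciprocal, and the grey band spans the 5th to 95th percentile (0.776 to 1.26) of abundant genes (mean count 200 or more). Bcl3, Nfkbib and Tnip1 stand at the right, and Peli2, Nfkbid and Traf3 at the left.

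The 6 called genes encode 3 IkB proteins, an A20 partner, a Pellino ligase and a TRAF scaffold. Bcl3 (ENSMUSG00000053175, mm10 chromosome 7, 19808462 to 19822770), a nuclear IkB protein that binds p50 and p52 dimers, had 2030 counts in the IL-36 gamma library and 1583 in the control library. Its ratio was 1.34 (1.251 to 1.43), and 2.12% of the 8683 abundant genes had a ratio as high. Nfkbib (ENSMUSG00000030595, chromosome 7, 28758251 to 28767512), which encodes the cytosolic inhibitor IkB beta, had 1033 counts with IL-36 gamma and 846 in the control. Its ratio was 1.27 (1.16 to 1.40). Tnip1 (ENSMUSG00000020400, chromosome 11, 54910785 to 54962917), which encodes the A20-binding inhibitor ABIN1, had 3731 counts with IL-36 gamma and 3096 in the control, a ratio of 1.26 (1.20 to 1.32). Its point value lay just above the bound for a call. The call of Bcl3 held with total gene counts and with the trend on gene length removed, and the calls of Nfkbib and Tnip1 ended under both.

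The Pellino ubiquitin ligase gene Peli2 (ENSMUSG00000021846, chromosome 14, 48120823 to 48281575) had 344 counts in the IL-36 gamma library and 499 in the control library. Its ratio of 0.718 (0.624 to 0.826) was the lowest of the 48. Nfkbid (ENSMUSG00000036931, chromosome 7, 30421732 to 30428746), which encodes the nuclear protein IkB-NS, had 286 counts with IL-36 gamma and 414 in the control, a ratio of 0.720 (0.617 to 0.839). Traf3 (ENSMUSG00000021277, chromosome 12, 111166370 to 111267153), a scaffold that restrains the NF-kB-inducing kinase NIK and serves the interferon branch, had 680 counts with IL-36 gamma and 914 in the control. Its ratio was 0.775 (0.701 to 0.857). Of abundant genes, 2.31% were as low as Peli2, 2.41% as low as Nfkbid and 4.98% as low as Traf3. The genes for 2 nuclear IkB proteins, Bcl3 and Nfkbid, thus lay on opposite sides.

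Since several of these genes are known NF-kB targets, the 250 bases before each RefSeq start (build GRCm38.p6) were searched on both strands for the kappa B consensus, the 10-base binding motif of NF-kB dimers. Windows were found for 41 of the 48 members, and 12 of these (29.3%) held at least 1 match in a window. Of all 27025 genes with a window, 4.46% held a match, and of 10182 measured genes with a window, 5.33% did. A match describes the letters and does not show that a factor binds there. The 12 members with a match were Tnip1, Nfkbia, Tank, Map3k7, Cyld, Tnip3, Nfkb2, Rel, Nfkbie, Tnfaip3, Traf3 and Nfkbid. Their ratios ran from 0.720 to 1.26 with a median log2 ratio of -0.06, and the 29 members without a match ran from 0.718 to 1.34 with a median of -0.03. Of the 12 with a match 1 was called higher and 2 lower, and of the 29 without one 2 were called higher and 1 lower.

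The upstream windows of 5 of them are shown because they hold matches of the same consensus and yet span the range of ratios from Tnip1 (1.26) and Nfkbia (1.17) to Tnfaip3 (0.815), Traf3 (0.775) and Nfkbid (0.720). Each is written 5′ to 3′ on the strand of its gene and ends at the base before the start, and capitals mark the matched bases. The Nfkbid window is 1 of 3 for that gene and lies inside the gene span (30421732 to 30428746), so its start is a downstream one. The Tnfaip3 window is 1 of 2 and lies almost wholly inside the gene span (19000910 to 19015657). In Tnip1 3 overlapping matches on the 2 strands form the run GGGGAATTCCCC.
Tnip1 (chr11:54962941-54963190, minus strand): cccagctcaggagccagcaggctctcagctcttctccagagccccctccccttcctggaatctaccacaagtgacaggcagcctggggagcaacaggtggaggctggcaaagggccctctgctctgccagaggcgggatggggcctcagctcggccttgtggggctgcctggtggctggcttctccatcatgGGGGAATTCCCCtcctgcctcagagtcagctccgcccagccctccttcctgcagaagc
Nfkbia (chr12:55492648-55492897, minus strand): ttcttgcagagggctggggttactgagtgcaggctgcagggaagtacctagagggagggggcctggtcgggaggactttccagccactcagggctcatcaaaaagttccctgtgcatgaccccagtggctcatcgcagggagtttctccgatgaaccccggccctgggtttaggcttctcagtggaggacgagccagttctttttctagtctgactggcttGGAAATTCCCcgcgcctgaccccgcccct
Tnfaip3 (chr10:19015411-19015660, minus strand): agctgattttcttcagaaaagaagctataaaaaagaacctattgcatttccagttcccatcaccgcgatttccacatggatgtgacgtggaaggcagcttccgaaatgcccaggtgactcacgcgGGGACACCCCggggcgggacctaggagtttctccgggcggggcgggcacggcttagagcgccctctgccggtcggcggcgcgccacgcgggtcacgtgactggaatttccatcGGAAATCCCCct
Traf3 (chr12:111166120-111166369, plus strand): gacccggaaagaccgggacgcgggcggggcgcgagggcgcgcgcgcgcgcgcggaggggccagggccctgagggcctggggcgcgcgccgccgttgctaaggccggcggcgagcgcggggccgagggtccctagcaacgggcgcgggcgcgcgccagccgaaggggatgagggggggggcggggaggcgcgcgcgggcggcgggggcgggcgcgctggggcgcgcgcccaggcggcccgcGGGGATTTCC
Nfkbid (chr7:30422156-30422405, plus strand): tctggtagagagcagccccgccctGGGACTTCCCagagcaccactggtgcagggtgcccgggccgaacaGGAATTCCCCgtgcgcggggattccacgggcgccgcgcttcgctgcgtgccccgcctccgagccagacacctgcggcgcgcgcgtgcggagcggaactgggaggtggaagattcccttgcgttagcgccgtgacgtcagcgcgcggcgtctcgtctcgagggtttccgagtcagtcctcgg
The match of Nfkbia, GGAAATTCCC on the strand of the gene, ended 20 bases before the start, and the consensus itself reads on the opposite strand. Tnfaip3 held GGGACACCCC on its own strand and GGAAATCCCC as an opposite-strand match whose last base lay 3 bases before the start. The match of Traf3, GGGGATTTCC, ended at the base before the start. Nfkbid held GGGACTTCCC and GGAATTCCCC, the nearer of them ending 172 bases before the start.

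**Figure D2:**
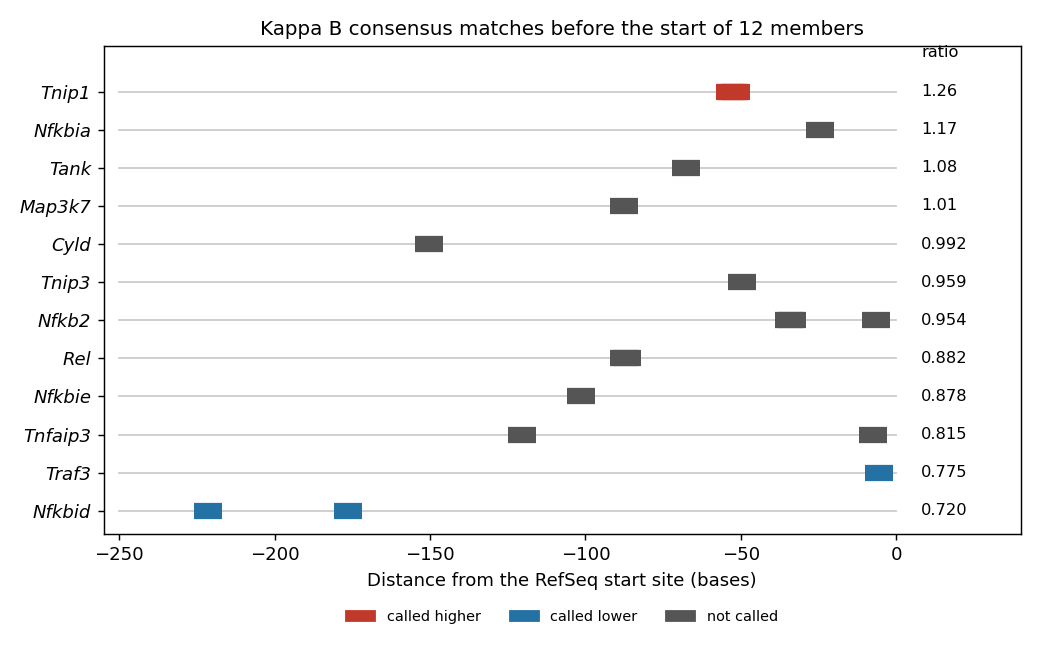
Positions of kappa B consensus matches (blocks) within the 250 bases before the RefSeq start site of 12 members, as distance in bases on a linear axis, ordered from the highest to the lowest ratio of the IL-36 gamma over the control library (printed at the right). For genes with several starts the window with most matches is drawn, and the first of these by coordinate. Tnip1, called higher, and Traf3 and Nfkbid, called lower, all carry matches.

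At the top of the route, the adaptor genes had ratios between 0.959 and 1.16, and none was called. Myd88, the adaptor of IL-1 family receptors and most Toll-like receptors, had 1776 counts in the IL-36 gamma library and 1600 in the control library. Its ratio of 1.16 (1.08 to 1.24) had the only whole interval above 1 among the 5 adaptors. Tirap, the bridging adaptor that brings MyD88 to TLR2 and TLR4, had 360 counts with IL-36 gamma and 330 in the control, a ratio of 1.14 (0.976 to 1.32). The interferon-linked adaptor gene Ticam1, which encodes TRIF, had a ratio of 1.06 (0.946 to 1.18), and Ticam2, which encodes its partner TRAM, one of 1.10 (0.918 to 1.31). Tollip, an adaptor known to restrain IRAK1, had 1448 counts with IL-36 gamma and 1573 in the control and a ratio of 0.959 (0.893 to 1.03). Per length, Myd88 was the most abundant adaptor, at 39.9 RPKM (counts scaled to the length of merged exons and to the total of gene counts) with IL-36 gamma and 35.6 RPKM in the control, and Ticam2 the least, at 2.61 RPKM with IL-36 gamma and 2.46 RPKM in the control.

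All 4 IRAK genes were expressed, and their ratios stayed between 0.918 and 1.02. Irak4, the kinase that starts the cascade, had 1219 counts in the IL-36 gamma library and 1383 in the control library, a ratio of 0.918 (0.850 to 0.993). Irak1 had 1602 counts with IL-36 gamma and 1670 in the control, and Irak2, which sustains the signal, had 1708 with IL-36 gamma and 1742 in the control. Both intervals included a ratio of 1. Irak3, which encodes the inhibitory family member IRAK-M known from macrophages, was the most abundant of the family per length, at 42.2 RPKM with IL-36 gamma and 44.7 RPKM in the control. Its 2677 counts with IL-36 gamma and 2865 in the control gave a ratio of 0.974 (0.923 to 1.03). The interval of this inhibitory gene included 1. Peli1, the Pellino ligase that attaches ubiquitin to IRAK1, had 457 counts with IL-36 gamma and 595 in the control. Its ratio of 0.8004 (0.707 to 0.906) lay just outside the bound for a lower call. Both Pellino genes among the members, Peli1 and Peli2, had whole intervals below 1.

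Among TRAF proteins, their cIAP partners and RIPK1, the ratios of the other members lay nearer to 1 than that of Traf3. Traf6, the ubiquitin ligase downstream of IRAK proteins, had 311 counts in the IL-36 gamma library and 348 in the control library, a ratio of 0.931 (0.797 to 1.09). Traf2 had 567 counts with IL-36 gamma and 524 in the control, with a ratio of 1.13 (0.9995 to 1.27) whose interval just included 1. Traf1 is a family member without a ligase domain and a known NF-kB target. It had the lowest mean count of the 48, from 196 counts with IL-36 gamma and 185 in the control. The neighbouring genes Birc2 and Birc3 encode the ligases cIAP1 and cIAP2, which act with TRAF2. Birc2 had 316 counts with IL-36 gamma and 399 in the control, a ratio of 0.825 (0.710 to 0.959). Birc3 had 1306 counts with IL-36 gamma and 1237 in the control, a ratio of 1.10 (1.02 to 1.19). The whole intervals of this pair lay on opposite sides of 1. Ripk1, a kinase and scaffold of TNF receptor and TRIF signalling, had a ratio of 0.933 (0.865 to 1.01).

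The TAK1 complex and related kinases were level or slightly lower, with ratios from 0.826 to 1.01 and no gene called. Map3k7, which encodes TAK1 itself, had 926 counts in the IL-36 gamma library and 956 in the control library, a ratio of 1.01 (0.921 to 1.11). Tab1, which activates TAK1, had 328 counts with IL-36 gamma and 414 in the control and a ratio of 0.826 (0.712 to 0.957), the only whole interval below 1 in the group. The ubiquitin-binding partner gene Tab2 had a ratio of 0.966 (0.914 to 1.02), and Tab3, with 186 counts with IL-36 gamma and 233 in the control, one of 0.832 (0.682 to 1.01). Tab2 exceeded Tab3 per length in both libraries, at 23.0 against 1.62 RPKM with IL-36 gamma and 24.6 against 2.01 RPKM in the control. Map3k8, the kinase TPL2 that links the pathway to ERK, had a ratio of 1.01 (0.916 to 1.10). Map3k14, which encodes NIK of the non-canonical branch, had a ratio of 0.889 (0.775 to 1.02).

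The IKK genes were measured with 751 to 2237 counts and none was called. Chuk, which encodes IKK alpha, had 777 counts in the IL-36 gamma library and 751 in the control library, a ratio of 1.08 (0.974 to 1.19). Ikbkb, which encodes IKK beta, the main IkB kinase of the canonical route, had 1795 counts with IL-36 gamma and 2122 in the control, a ratio of 0.881 (0.827 to 0.939). The scaffold gene Ikbkg, which encodes NEMO, had a ratio of 0.979 (0.922 to 1.04). In the interferon-linked branch, Tbk1 had a ratio of 0.912 (0.850 to 0.979), and its adaptor gene Tank one of 1.08 (0.981 to 1.20). Ikbke, which encodes IKK epsilon, had the most counts of any member, 7234 with IL-36 gamma and 8193 in the control, and a ratio of 0.920 (0.891 to 0.950). The kinases Ikbkb, Tbk1 and Ikbke thus each had a whole interval below 1, by less than the fold bound.

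The 5 NF-kB subunit genes had ratios between 0.882 and 1.09, and none was called. Rela, which encodes the transactivating subunit p65, had 2166 counts in the IL-36 gamma library and 2179 in the control library, a ratio of 1.04 (0.976 to 1.10). Nfkb1, the p105 precursor of p50, had 2351 counts with IL-36 gamma and 2449 in the control and a ratio of 1.0 (0.945 to 1.06). Nfkb2, the p100 precursor of p52, had 1977 counts with IL-36 gamma and 2159 in the control and a ratio of 0.954 (0.897 to 1.01). Relb, the partner of p52 in the non-canonical branch, had a ratio of 1.09 (0.999 to 1.18). Rel, which encodes c-Rel, had 577 counts with IL-36 gamma and 682 in the control, a ratio of 0.882 (0.788 to 0.986). Per length Rela was the most abundant subunit transcript, at 40.8 RPKM with IL-36 gamma and 40.7 RPKM in the control, and Rel the least, at 4.48 RPKM with IL-36 gamma and 5.24 RPKM in the control. The summed counts of the 5 genes gave a ratio of 0.999 (0.969 to 1.03).

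The cytosolic IkB genes lay on both sides of 1. Nfkbia, which encodes IkB alpha and is resynthesised as NF-kB becomes active, had 4304 counts in the IL-36 gamma library and 3819 in the control library. Its ratio was 1.17 (1.12 to 1.23), below the fold bound, and 13.3% of abundant genes were as high. Per length it was the most abundant of the 48 members, at 155 RPKM with IL-36 gamma, above 97.8% of genes tested, and 136 RPKM in the control, above 97.7%. Nfkbib, described above, was called higher at 27.6 RPKM with IL-36 gamma and 22.4 RPKM in the control. Nfkbie, which encodes IkB epsilon, had 406 counts with IL-36 gamma and 482 in the control, a ratio of 0.878 (0.767 to 1.004). Summed counts of the 3 genes were 5743 with IL-36 gamma and 5147 in the control, a ratio of 1.16 (1.12 to 1.21).

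The nuclear IkB genes differed most among themselves. Nfkbiz, which encodes IkB zeta, the coactivator needed for a set of secondary target genes, had 4962 counts in the IL-36 gamma library and 4663 in the control library. Its ratio was 1.11 (1.07 to 1.15), and 25.3% of abundant genes were as high. Bcl3 lay at 47.5 RPKM with IL-36 gamma and 36.7 RPKM in the control. Nfkbid lay at 7.06 RPKM with IL-36 gamma and 10.1 RPKM in the control. Ratios in this group of 3 therefore spanned 0.720 to 1.34, the full width of all 48 members but for Peli2.

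Among the ubiquitin editors and the RNase that restrain the pathway, 3 members had whole intervals above 1 and 1 had an interval below it. Tnfaip3, which encodes the ubiquitin editor A20, had 1425 counts in the IL-36 gamma library and 1823 in the control library. Its ratio of 0.815 (0.759 to 0.873) lay close to the lower bound without reaching it, and 8.29% of abundant genes were as low. Tnip1, whose product works with A20, was called higher, so A20 and its binding partner had whole intervals on opposite sides of 1. The other ABIN genes were level, with ratios of 0.942 (0.830 to 1.07) for Tnip2 and 0.959 (0.893 to 1.03) for Tnip3. Otulin, which encodes the deubiquitinase of linear chains, had 864 counts with IL-36 gamma and 788 in the control, a ratio of 1.14 (1.04 to 1.26). Cyld, a deubiquitinase that removes linear and K63-type chains, had 735 counts with IL-36 gamma and 772 in the control and a ratio of 0.992 (0.896 to 1.10). Zc3h12a, which encodes the RNase Regnase-1 that degrades cytokine transcripts, had 2099 counts with IL-36 gamma and 1894 in the control, a ratio of 1.15 (1.08 to 1.23).

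Levels per length varied more between members than between the libraries. The median member stood at 11.3 RPKM with IL-36 gamma and 11.7 RPKM in the control, and the median of all genes tested at 4.64 RPKM with IL-36 gamma and 4.90 RPKM in the control. Below Nfkbia came Tnip1 at 61.1 RPKM with IL-36 gamma and 50.2 RPKM in the control, and Nfkbiz at 57.3 RPKM with IL-36 gamma and 53.3 RPKM in the control. Ikbke, at 46.5 RPKM with IL-36 gamma and 52.1 RPKM in the control, lay below both with IL-36 gamma, and above Tnip1 in the control. Traf1 was lowest, at 1.29 RPKM with IL-36 gamma and 1.20 RPKM in the control. These levels depend on which exons are counted in the length. With the shorter GENCODE basic transcripts the levels of 13 members were more than 1.5 times higher, by up to 4.21 times for Ikbkb. Ikbke then stood at 127 RPKM with IL-36 gamma and 142 RPKM in the control, and Nfkbia at 158 RPKM with IL-36 gamma and 139 RPKM in the control. The level of Nfkb1 then became 33.0 RPKM with IL-36 gamma and 34.1 RPKM in the control, in place of 11.3 RPKM with IL-36 gamma and 11.7 RPKM in the control. Nfkbia was highest in both libraries with merged exons, and with basic transcripts it was highest in the IL-36 gamma library only, behind Ikbke in the control. Traf1 was lowest with merged exons only. With basic transcripts it stood at 2.80 RPKM with IL-36 gamma and 2.62 RPKM in the control. Tab3 was then lowest, at 1.69 RPKM with IL-36 gamma and 2.10 RPKM in the control.

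**Figure D3:**
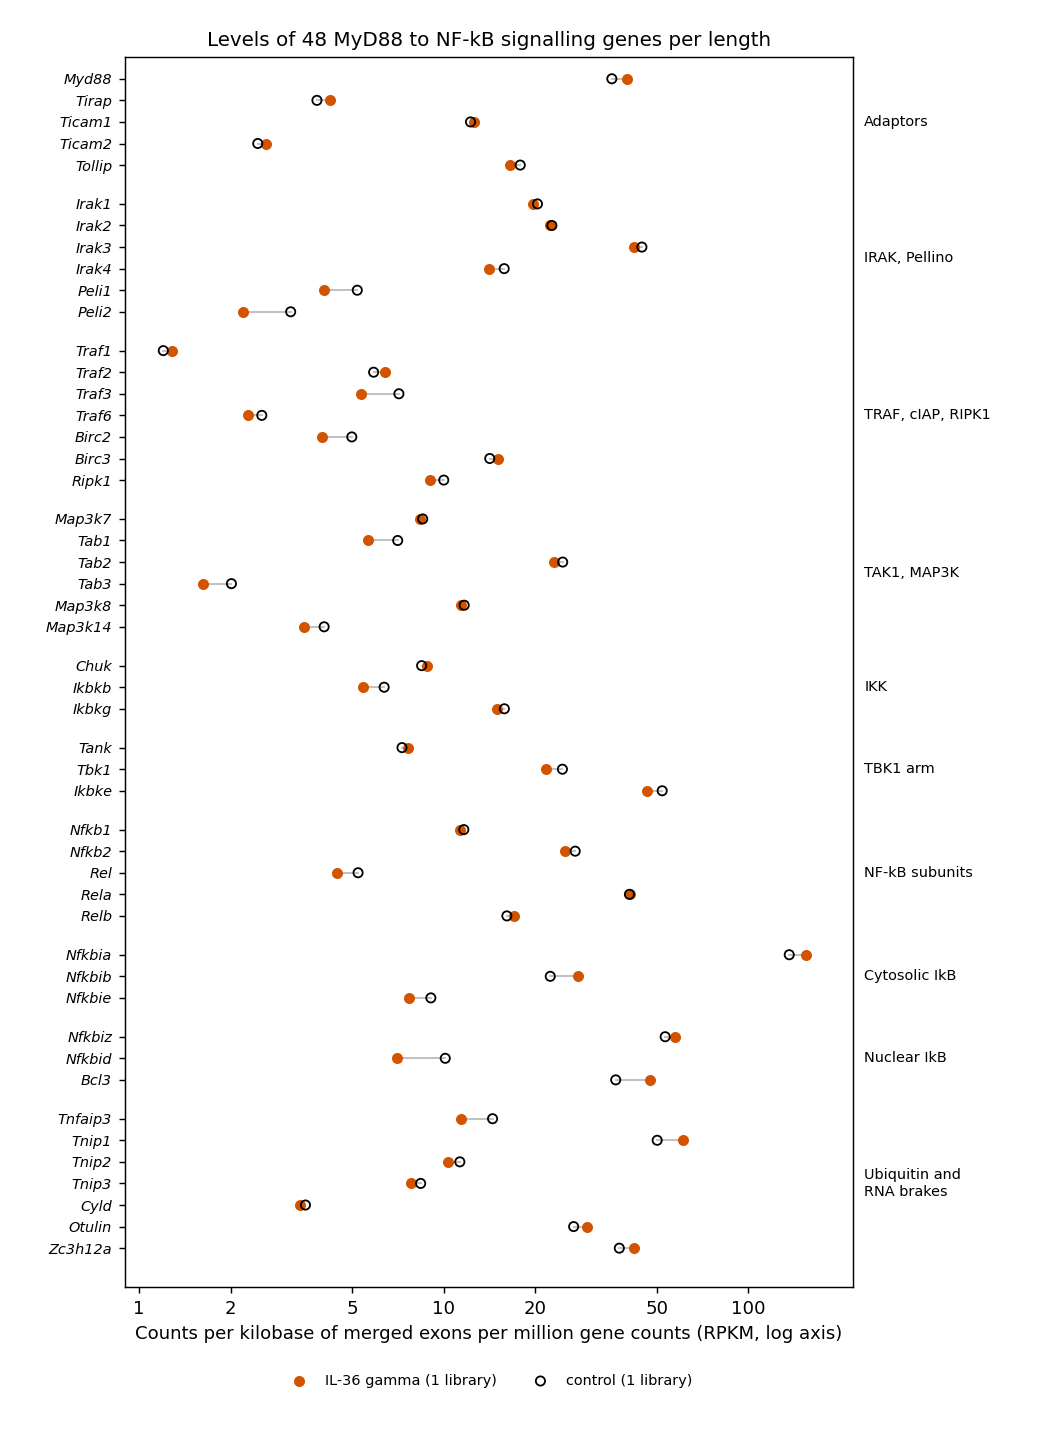
Level of each of 48 genes as RPKM, on a log axis, in the IL-36 gamma library (filled circles) and the control library (open circles), grouped by role. The 2 circles of a gene lie close together, while genes run, with merged exons, from about 1.2 RPKM for Traf1 to 155 RPKM for Nfkbia.

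Ratios also followed exon length, among the members and among all genes. Over the 48 members the Spearman rho of log2 ratio with merged exon length was -0.42, and over 8682 abundant genes it was -0.48. All points come from the same 2 libraries, and these values describe them only. In 10 equal groups of the genes tested, ordered by length, the median log2 ratio was 0.12 in the second group (1132 to 1877 bases) and -0.17 in the group of longest genes (from 9235 bases). Bcl3 (2475 bases), Nfkbib (2169 bases) and Tnip1 (3539 bases) are shorter than the median member of 5020 bases, and Peli2 (9089 bases) and Traf3 (7350 bases) are longer. With the length trend removed, the log2 ratio of Bcl3 was 0.34, that of Nfkbib 0.25 and that of Tnip1 0.29, and of the 48 members Bcl3 alone remained called higher, against 5.01% of all genes tested. In the lower class were 3 of the 48 members, against 7.4% of all genes tested. Nfkbid, a short gene of 2346 bases, moved further down to -0.56. Peli2 (-0.37) stayed in the lower class, Tab1 (-0.32) joined it and Traf3 (-0.29) left it. The lower values of Ikbkb and Ikbke also went with merged exon length: without the trend their log2 ratios were 0.09 and -0.01. This depends on which exons are counted. Merged exons span 19078 bases in Ikbkb and 9018 in Ikbke, and basic transcripts 4533 and 3309. A trend on basic length was not fitted.

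**Figure D4:**
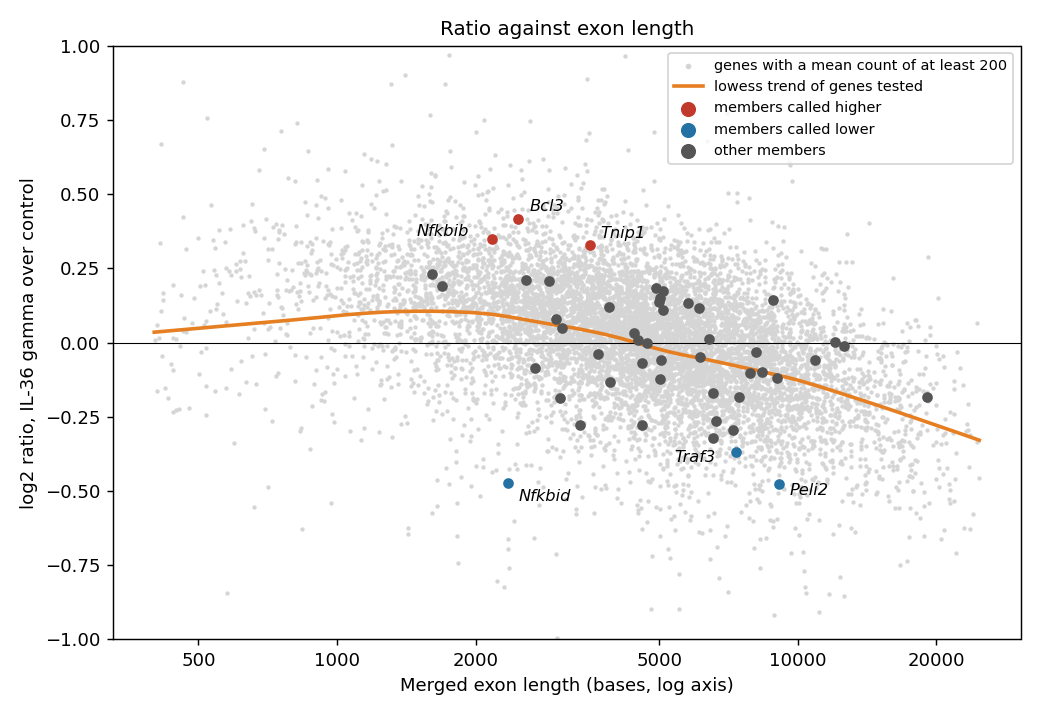
Log2 ratio of the IL-36 gamma over the control library against merged exon length in bases (log axis), for abundant genes (mean count 200 or more, grey, 76 of them outside the axes), with the lowess trend of all genes tested (orange) and the 48 members (red where called higher, blue where called lower, dark grey otherwise). Longer genes tend to lower ratios, and Nfkbid lies far below the trend for its length while Bcl3 lies above it.

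Exonic overlap with other genes touches 15 of the 48 members. Because the strand setting of the counting is not given, reads of a gene and of a gene on the opposite strand cannot be told apart. In Nfkbib 356 of 2169 exonic bases and in Bcl3 161 of 2475 lie inside exons of the opposite strand, and in Peli2 869 of 9089 are shared with another gene on the same strand. Tnip1, Nfkbid and Traf3 have no such overlap.

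Upstream of the adaptors, 18 genes of receptors, co-receptors and related proteins were listed. Of these, 16 were measured, none was called higher (against 6.03% of all genes tested) and 1 was called lower (6.25%, against 8.86%). Their median log2 ratio was -0.08. The IL-36 receptor gene Il1rl2 had 45 counts in the IL-36 gamma library and 63 in the control library, a ratio of 0.744 (0.496 to 1.11), and its accessory chain gene Il1rap had 140 counts with IL-36 gamma and 154 in the control. Both intervals included 1. The gene called lower was the Toll-like receptor gene Tlr8, with 1265 counts in the IL-36 gamma library and 1792 in the control library, a ratio of 0.736 (0.684 to 0.791). Of 34 further signalling genes (linear ubiquitin ligase subunits, ubiquitin-conjugating enzymes, deubiquitinases and others), 33 were measured, with 1 called higher (3.03%, against 6.03% of all genes tested), 4 lower (12.1%, against 8.86%) and a median log2 ratio of 0.00. Malt1, a paracaspase known to cleave A20 in lymphocytes, had 239 counts with IL-36 gamma and 371 in the control, a ratio of 0.671 (0.568 to 0.792). Its merged exons span 18040 bases, and with the length trend removed its log2 ratio was -0.32 in place of -0.57 and its call ended. That trend used merged exon length, and the basic transcripts of Malt1 span 5375 bases. The third Pellino gene, Peli3, had 87 counts with IL-36 gamma and 125 in the control, a ratio of 0.725 (0.545 to 0.961). Nkap (ratio 0.723) and Traf4 (14 counts with IL-36 gamma and 31 in the control, ratio 0.471) were the other lower ones, and the Ras-like IkB-binding gene Nkiras1 (ratio 1.26) the higher one. In Nkiras1 823 of 5491 exonic bases overlap the opposite strand.

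Il12b aside, known NF-kB target genes had ratios from 0.529 (Vcam1) to 2.45 (Saa3), outside the span of the 48 members on both sides. Il12b (0.120) had few counts and passed the count filter only through the control library. Of 28 listed, 25 were measured, 8 were called higher (32%, against 6.03% of all genes tested) and 2 lower (8%, against 8.86%), and their median log2 ratio was 0.15, against 0.00 over all genes tested. These are short genes, with a median of 2252 bases. With the length trend removed 5 of 25 were called higher, against 721 of 14379 genes tested (5.01%). Called lower were 3 of 25, against 1064 of 14379 (7.4%). The chemokine gene Cxcl3 had 98 counts in the IL-36 gamma library and 57 in the control library, a ratio of 1.79 (1.28 to 2.53), and the stress gene Gadd45b had 1054 counts with IL-36 gamma and 645 in the control, a ratio of 1.70 (1.54 to 1.88). Also higher were Saa3 (2.45), Lcn2 (1.68), Ccl5 (1.64) and Ccl4 (1.31), with the ratio in parentheses. The calls of Ccl4, Ccl3 and Tnf ended with the length trend removed. The adhesion gene Vcam1 had 893 counts with IL-36 gamma and 1760 in the control, a ratio of 0.529 (0.487 to 0.573), and Il12b had 3 counts with IL-36 gamma and 26 in the control, a ratio of 0.120 (0.0233 to 0.392). Lcn2 is also a granule gene of neutrophils, whose markers were higher in the same library, as given above. The target list was assembled with results of these data known, and its median is a description.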

How the data were processed

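RNA of untreated and IL-36 gamma treated macrophages was sequenced, with 1 library in each group. The authors deposited raw read counts per gene, made with FastQC 0.11.8, Trim Galore 0.6.1, STAR 2.5.0a, HTSeq and build mm10, per the submitters' processing notes. The labels leave out the annotation release and the strand setting of the counting. The 5 summary rows of HTSeq were kept out of library sizes: reads in no gene were 46.3% of the IL-36 gamma library and 47.2% of the control library. Of 54446 gene IDs, 37 had no match in GENCODE M21. Library sizes were multiplied by TMM factors, computed in edgeR 4.0.16 (0.984 for IL-36 gamma, 1.02 for control). Ratios carry exact Clopper-Pearson intervals, which cover counting error only: reads copied by PCR are not independent molecules, and variation between cultures was not measured. edgeR's replicate test could not be used with 1 library per group. The ratio rule was checked on simulated counts that carried counting error only. Such counts cannot show how the rule behaves under variation between cultures. RPKM was computed as counts scaled to the length of merged exons and to the total of gene counts. Alternatives changed the scaling, filter, fold, interval, gene set, depth and length. All 48 members are named, and of other lists up to 6 called genes in each direction, plus the IL-36 receptor genes and markers quoted. The members and lists were chosen with earlier results of these data known, and the cut at a mean count of 200 was set after values were seen.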

Additional observations from a re-analysis of the deposited data

How the results depend on the processing

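No paired analysis was possible because each group has 1 library, and for the same reason no replicate could be left out. The 3 members called higher became 1 with total gene counts (Bcl3), 1 with the length trend removed (Bcl3) and 1 with genes that share exonic bases left out (Tnip1), and 2 with protein-coding genes only or the expression trend removed. The 3 called lower became 7 with total gene counts, adding Birc2, Peli1, Tab1 and Tnfaip3, 4 with protein-coding genes only or the deeper library thinned, and 2 with genes that share exonic bases left out (Nfkbid and Traf3, since Peli2 is one of those left out). A bound of 1.5-fold or 2-fold left 0 higher and 0 lower, and no bound gave 9 higher and 12 lower. Over 11 settings of scaling, filter and interval, Bcl3 was called higher in 11, and Peli2 and Nfkbid lower in 11. Traf3 was called lower in 10, Nfkbib higher in 9 and Tnip1 higher in 7. The 11 include the main setting itself, no count filter, and a mean count of at least 50. Those filters could not change a call, since every member had a mean count of at least 190.5. DESeq2 and upper quartile factors also barely moved the ratios: for Bcl3 they gave 1.336 and 1.339, against 1.336 with TMM. The median log2 ratio ran from -0.07 with total gene counts to 0.02 with the length trend removed. Of the single ratios of 48 members recomputed under 7 settings, 325 stayed within their interval and 11 moved beyond it, 7 of them with the length trend removed. Among members called in the main setting, 0 ratios crossed to the other side of 1. Uncalled members are outside that count and could cross, as Ikbkb did, from 0.881 to 1.06 with the length trend removed. The median level was 11.3 RPKM with merged exons and 17.2 RPKM with basic transcripts in the IL-36 gamma library. The overlap and basic-transcript alternatives were chosen after seeing the data. The cause of these shifts was not tested. Members rested on 190.5 to 7713.5 mean counts, so the intervals were widest for Traf1 and Tab3.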
